A study of Mus musculus with 12 samples.

Results

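The Schlafen family was described in tumor-derived NK and CD8 T cells of mice that differ in TYK2, a Janus kinase of the type I interferon (IFN-I) receptor. The members were the Schlafen genes Slfn1, Slfn2, Slfn3, Slfn4, Slfn5, Slfn8 and Slfn9, which are 7 of the 54232 genes in the count table. They were taken by name, and the family was chosen by the measured level of Slfn8, which was lower in CD8 cells with kinase-inactive TYK2 (KE) than in wild type (WT) CD8 cells. That comparison, and any difference built on it, is therefore given here without a test for any member, and Slfn8 was tested only where neither the CD8 WT nor the CD8 KE libraries entered the contrast. All 7 members passed the filter on low counts.

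Poly(A) RNA was profiled by Smart-seq2, a full-length method for low input, in 12 libraries, which form 6 groups of 2: NK WT, NK KO, NK KE, CD8 WT, CD8 KO and CD8 KE. The mice were on a C57BL/6N background, 6 to 12 weeks old, and were either WT, germline Tyk2 knockouts (KO, labelled TYK2KO), or carriers of a germline point mutation in Tyk2 after which the protein is made but cannot act as a kinase (KE, labelled TYK2KE). No group received a treatment. All mice carried subcutaneous transplants of MC38, a mouse colon adenocarcinoma line, for 8 to 10 days, and each library was made from 300 sorted cells, either CD45+ CD3ε- NK1.1+ (NK) or CD45+ CD3ε+ CD8a+ (CD8). Both mutations were present in every cell of the mouse, so that genotype of the sorted cells and genotype of their host cannot be told apart. The labels do not say whether the 2 libraries of a group came from separate mice, so p-values measure only the spread between these libraries, which may be technical.

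Schlafen genes are found in mammals in a cluster that has expanded in the mouse, and many of them respond to IFN-I. When IFN-I binds its receptor, TYK2 and JAK1 activate STAT proteins, and the ISGF3 complex binds the IFN-stimulated response element (ISRE) in the promoters of IFN-stimulated genes (ISG). The short members Slfn1 and Slfn2 were first described as restraints on lymphocyte growth, and loss of Slfn2 leaves T cells unable to stay quiescent. Slfn3 and Slfn4 are of intermediate length, and Slfn5, Slfn8 and Slfn9 are long forms that carry a helicase-like region.

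On GRCm38 all members lay on chromosome 11 in the order Slfn5, Slfn9, Slfn8, Slfn2, Slfn1, Slfn4 and Slfn3, within 263.8 kb. Slfn8 spans chr11:83002158-83020810 on the minus strand, Slfn9 chr11:82978390-82991830 on the minus strand, and Slfn5 chr11:82951349-82964840 on the plus strand. Slfn2 spans chr11:83065112-83070678, Slfn1 chr11:83116849-83122670, Slfn4 chr11:83175186-83190216 and Slfn3 chr11:83191330-83215154, all on the plus strand. The neighbours Slfn10-ps, a pseudogene between Slfn8 and Slfn2, and Slfn14, beyond Slfn3, are not members. Slfn10-ps was read in all 12 libraries with 8939 reads in total. Slfn14 and the Schlafen-like gene Slfnl1 had 0 reads in each of the 12.

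The promoters divided the family in the same way as the map. RefSeq promoter windows of 250 bases before and 50 after the start were searched on both strands for the ISRE core, which is TTTC, any 2 bases and TTTC. The core was present upstream of Slfn8, Slfn9 and Slfn5, and absent from the windows of Slfn1, Slfn2, Slfn3 and Slfn4. Over all 32851 RefSeq mouse promoters of this length, 3.44% held it. The sequences of the members with the core are shown because these are the letters ISGF3 recognises in other ISG, with the core in capitals, 5′ to 3′ on the strand of the gene (RefSeq, GRCm38.p6).
Slfn8, chr11:83020814-83020893: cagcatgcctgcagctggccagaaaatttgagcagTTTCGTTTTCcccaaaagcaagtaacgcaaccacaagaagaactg
Slfn9, chr11:82991831-82991910: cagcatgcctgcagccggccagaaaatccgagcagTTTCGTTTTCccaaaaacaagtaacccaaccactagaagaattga
Slfn5, chr11:82951905-82951984: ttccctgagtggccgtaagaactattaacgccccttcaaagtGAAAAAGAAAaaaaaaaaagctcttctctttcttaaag

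The core began 48 bases upstream of the Slfn8 start, 45 bases upstream of the Slfn9 start and 155 bases upstream of the Slfn5 start, where it was read on the opposite strand. Slfn8 has another RefSeq start, for which the same core lay 136 bases upstream. Slfn8 and Slfn9 shared a run of 20 identical bases in their promoters, the longest of any pair of members. The window of Slfn5 lay in an intron of a GENCODE transcript that starts further upstream. A match is a string of letters and not a measured binding site.

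The other members shared a different word, ACTTCCTGG, which holds the core recognised by ETS factors. It was picked after the sequences had been seen and occurred in 0.843% of all promoters. It began 74 bases upstream of the start of Slfn1, 55 of Slfn2, 73 of Slfn4 and 42 of Slfn3, and none of the promoters of Slfn5, Slfn8 and Slfn9 held it. In NK cells the levels of Slfn1, Slfn2 and Slfn4 were lower in every mutant library than in WT, and that of Slfn3 was not. No difference between these genes was tested. Their sequences are shown because they share this word, given in capitals (RefSeq, GRCm38.p6, plus strand).
Slfn1, chr11:83116711-83116790: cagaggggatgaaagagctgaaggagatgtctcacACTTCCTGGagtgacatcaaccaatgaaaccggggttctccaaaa
Slfn2, chr11:83065022-83065101: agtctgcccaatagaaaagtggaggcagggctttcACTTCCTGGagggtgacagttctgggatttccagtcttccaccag
Slfn4, chr11:83175078-83175157: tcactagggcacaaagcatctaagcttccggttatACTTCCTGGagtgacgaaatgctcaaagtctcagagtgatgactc
Slfn3, chr11:83191250-83191329: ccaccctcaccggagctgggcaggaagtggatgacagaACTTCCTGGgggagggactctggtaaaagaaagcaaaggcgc

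The GAS element TTCNNNGAA, which STAT dimers recognise, was in none of the promoters of the 7 members and in 8.3% of all promoters.

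**Figure D1:**
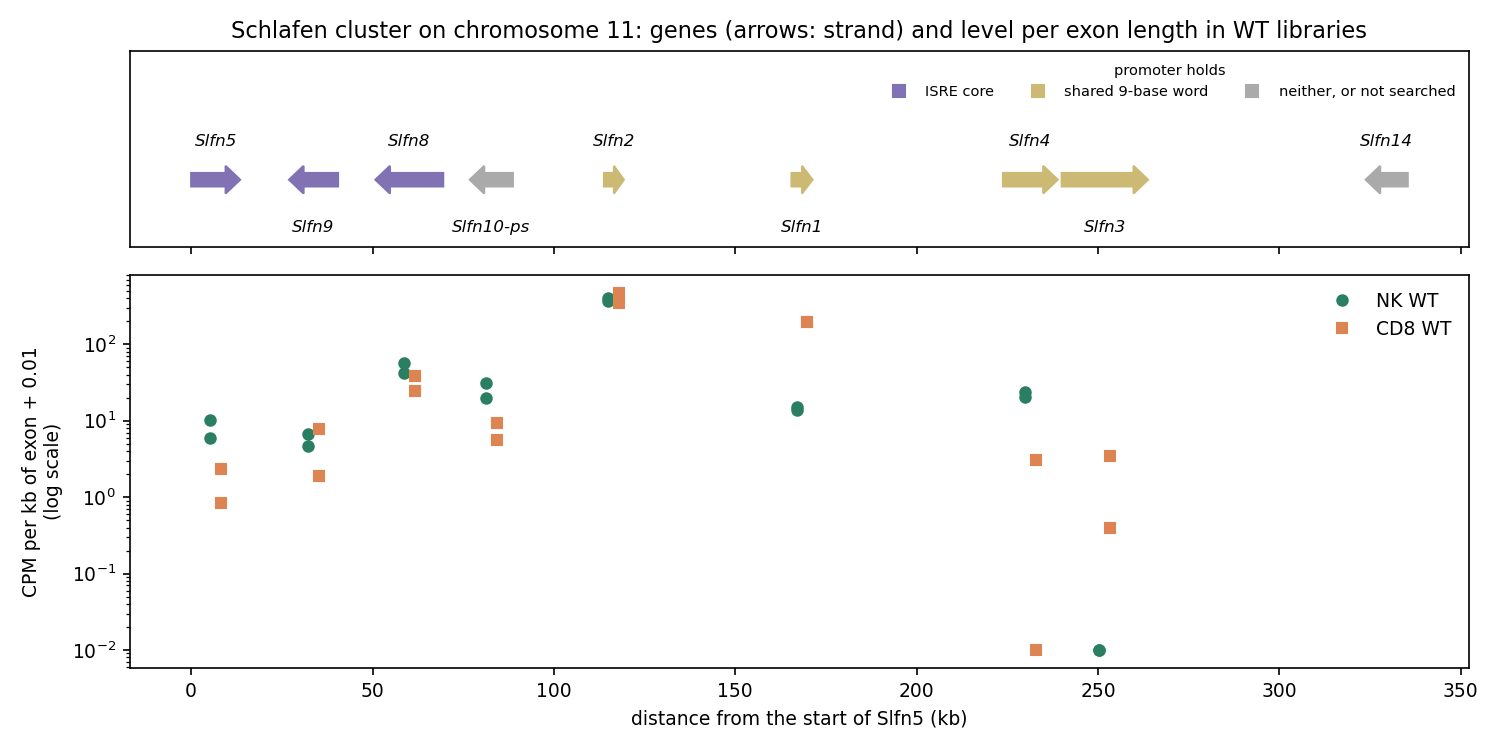
Upper part: the Schlafen cluster drawn to scale in kb from the start of Slfn5, with arrows for the strand and colors for the promoter word. Lower part: CPM per kb of exon (plus 0.01, log scale) of each WT library, in which Slfn2 was the highest member in both cell types and Slfn3 was at 0 in both NK WT libraries; Slfn14, at 0 reads, has no points.

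Total counts per library lay between 10378761 and 14732882, so that 3 reads, the most that 0 observed reads allow, correspond to 0.204 to 0.289 CPM (counts scaled to the same library total in every library). Intervals and floors from reads cover counting error only, since no molecular identifiers were used. The sorted cell types showed their defining transcripts: the 7 NK cell markers summed to 3580 to 6958 CPM in NK libraries and to 14.7 to 80.7 CPM in CD8 libraries, whereas the 9 T cell markers summed to 63.8 to 357 CPM in NK and to 10808 to 15393 CPM in CD8 libraries. Tyk2 transcripts were not lower in the knockouts, with 58.4 and 112 CPM in the libraries labelled NK KO against 58.6 and 68.7 CPM in NK WT, and 61 and 75.2 CPM in those labelled CD8 KO against 44.2 and 83.7 CPM in CD8 WT. In KE, Tyk2 was 125 and 86.3 CPM in NK cells, above both WT libraries, and 59.1 and 44.8 CPM in CD8 cells. Whether the reads fell in the deleted part is not known, so transcript level is no check of the knockout labels here.

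Several marker sums of the NK libraries differed between genotypes without overlap. The 15 myeloid cell markers summed to 16165 and 14602 CPM in the NK WT libraries, to 7586 and 28.7 CPM in NK KO and to 67 and 434 CPM in NK KE, against 54.4 to 606 CPM in CD8 libraries. All 15 were above 3 reads in both NK WT libraries, and 7 to 13 of them were in the mutant NK libraries. In bulk libraries, fewer cells of a type and less RNA per cell cannot be told apart. The NK cell markers summed to 3580 and 4215 CPM in NK WT, below 6669 and 4750 CPM in KO and 6958 and 6410 CPM in KE. The T cell markers, at 63.8 and 112 CPM in NK WT, overlapped with KO (94.8 and 341 CPM) and were higher in KE (238 and 357 CPM). Neutrophil markers summed to 26.5 and 6.68 CPM in NK WT and to at most 0.0964 CPM in the mutant NK libraries. In CD8 cells they were 32.3 and 22.2 CPM in WT, at most 0.0754 CPM in KO, and 0 and 15.1 CPM in KE, and S100a8 and S100a9 were at 0 reads in all libraries. The part of these sums in the Schlafen differences was not tested. B cell markers summed to 148 to 781 CPM with Cd79a and Pax5 at 0, dendritic cell markers to 18.4 to 362 CPM with Clec9a at 0, and tumor epithelial markers to 0 to 53.1 CPM.

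Slfn2 was the most abundant member per exon length in every group. Its level in WT was 382 CPM per kb of exon in NK and 412 CPM per kb in CD8 cells (means of 2 libraries). In NK WT it was followed by Slfn8 (49.6), Slfn4 (22.1), Slfn1 (14.3), Slfn5 (8.07) and Slfn9 (5.72 CPM per kb), and of these neighbours only Slfn5 and Slfn9 overlapped between libraries. In CD8 WT it was followed by Slfn1 (195) and Slfn8 (31.7 CPM per kb), each without overlap, and then by Slfn9, Slfn3, Slfn5 and Slfn4 at 1.52 to 4.86 CPM per kb, whose libraries overlapped. Slfn2 made up 59.2% to 92.2% of the summed Schlafen level per kb in any library. Slfn1 made up 9.76% to 33.3% of it in CD8 libraries and 0.0607% to 3.12% in NK libraries.

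**Figure D2:**
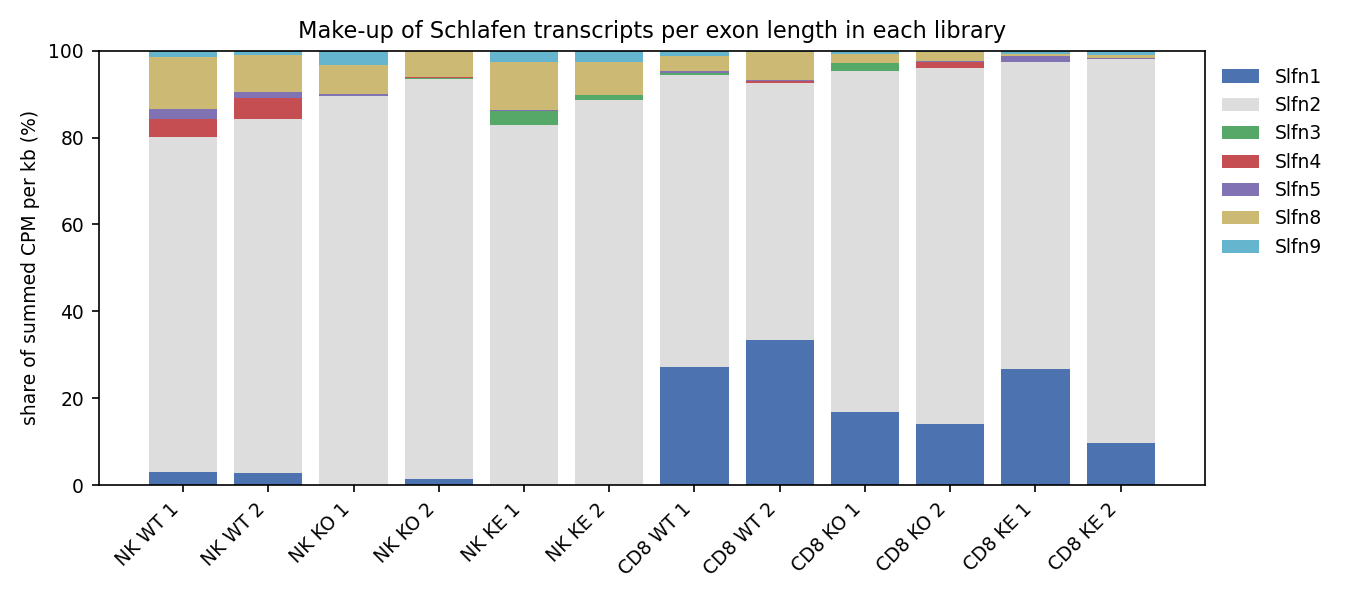
Share of each member in the summed CPM per kb of exon of the 7 Schlafen genes (bars from 0 to 100%), in each of the 12 libraries. Slfn2 fills most of every bar, Slfn1 takes 9.76% to 33.3% in CD8 libraries, and Slfn4 is visible in the NK WT libraries at 4.26% and 4.92%.

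The next question was how the family depends on TYK2 in NK cells. Of the 7 members, 5 (Slfn1, Slfn2, Slfn4, Slfn5 and Slfn8) were lower in all 4 mutant libraries than in both WT libraries, a pattern shown by 9.46% of the 13129 genes tested. Slfn3 and Slfn9 did not show it. The median log2 fold change of the 7 members was -1.95 in KO and -1.20 in KE against WT, beside -0.01 and 0.00 over all genes tested. By the edgeR quasi-likelihood test with Benjamini-Hochberg adjustment, no member passed the thresholds (FDR under 0.05 and at least 2-fold) in either comparison, in which 0% of all genes passed. At an unadjusted p under 0.05, 4 members in KO, all lower, and 6 in KE, of which 5 were lower and Slfn3 was higher, were reached, beside 6.35% and 6.06% of all genes. Without the filter on low counts, edgeR called 2 (Slfn1 and Slfn4) in each, beside 0.823% and 1.08% of the 23707 genes then fitted. DESeq2 called 4 members in KO against WT (Slfn1, Slfn2, Slfn4 and Slfn8), with 2.67% of all genes called, and 2 in KE against WT (Slfn1 and Slfn4), with 2.83% called. Both comparisons share the NK WT libraries, which are also those with the highest myeloid marker sums.

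**Figure D3:**
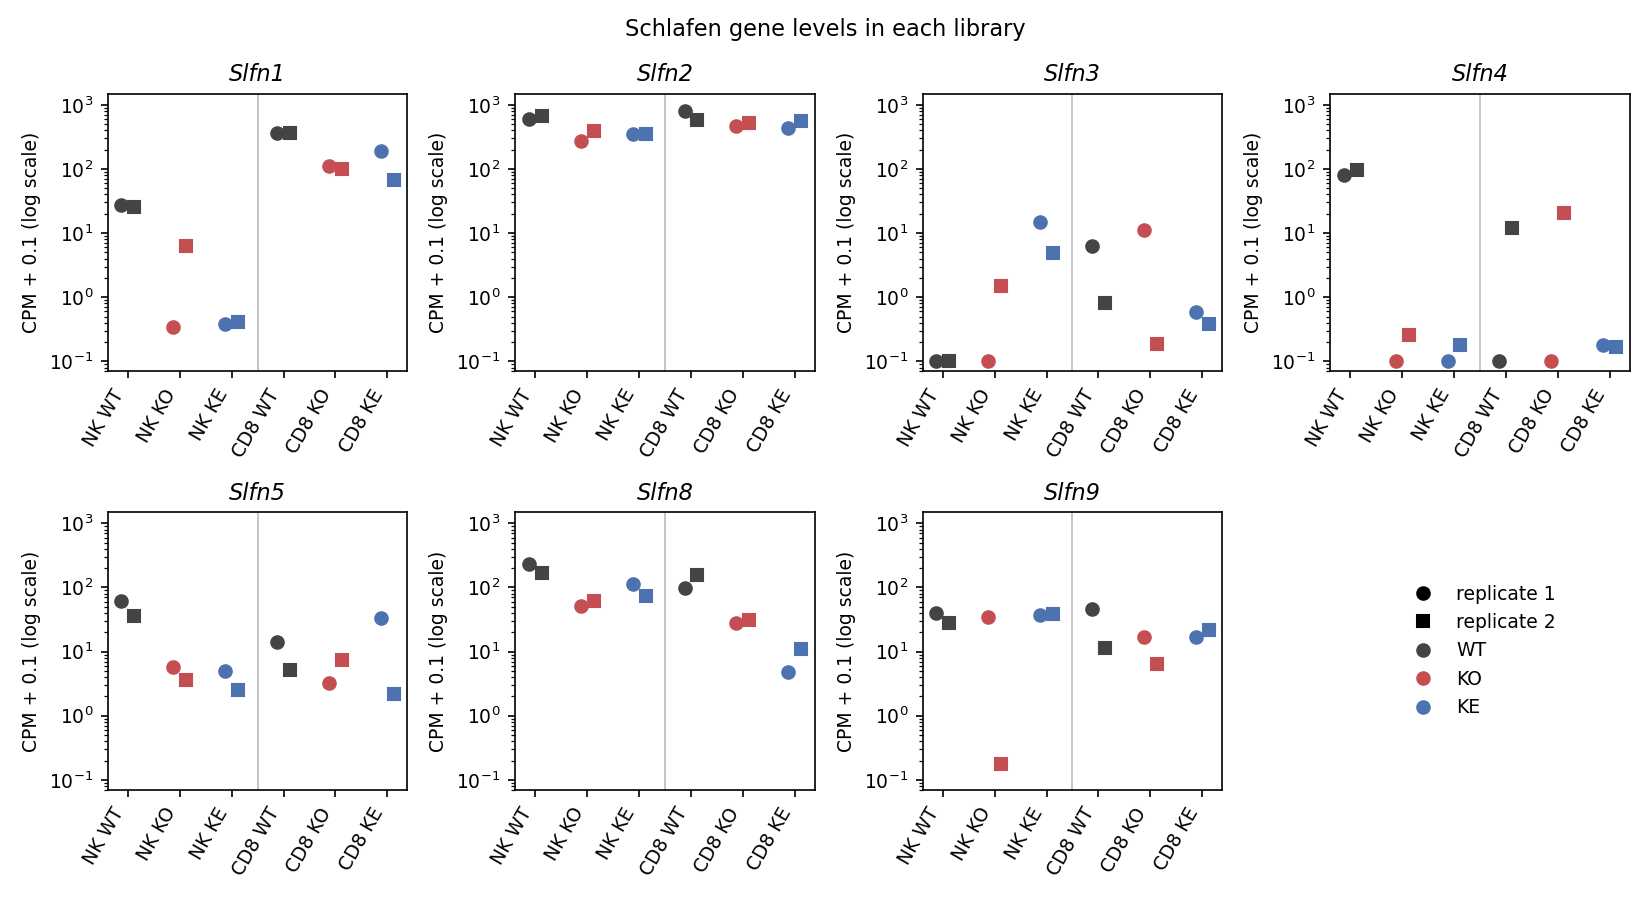
CPM plus 0.1 (log scale) of each member in each library, by group, with a circle for replicate 1 and a square for replicate 2. Black WT points lie above all red KO and blue KE points of NK cells for Slfn1, Slfn2, Slfn4, Slfn5 and Slfn8, and Slfn3 and Slfn9 differ widely between libraries of one group.

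Slfn1, known for the growth arrest it causes when overexpressed in thymocytes, was 27.7 and 25.6 CPM in NK WT, 0.243 and 6.3 CPM in NK KO and 0.289 and 0.314 CPM in NK KE. Both KE libraries and KO replicate 1 held 3 or 4 reads, at or just above the floor, while KO replicate 2 held 80 reads. The log2 fold change was -3.14 ± 0.97 (SE) in KO and -6.51 ± 1.20 in KE, with edgeR FDR of 0.659 and 0.16. The KO value was -2.20 without KO replicate 1 and -6.80 without KO replicate 2. DESeq2 gave FDR of 0.0258 and 2.52e-07. Slfn1 in KE against WT passed in edgeR when either NK KO library was left out of the shared fit, with FDR of 0.00547 without KO replicate 1 and 0.00556 without KO replicate 2. Between KO and KE, the log2 difference of 3.37 ± 1.12 (edgeR FDR = 1) rested on KO replicate 2, without which it was -0.29. Slfn1 was also the 1 member called there by edgeR without the filter on low counts, beside 0.405% of genes. KO replicate 2, the mutant NK library with the most Slfn1, had the highest Cd3e of the NK libraries, at 55.1 CPM against 7.14 to 32.5 CPM in the others. The part of T cell transcripts in the Slfn1 differences was not tested.

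Slfn2, required for T cell quiescence and survival, showed a smaller difference with little spread. Its level was 610 and 662 CPM in NK WT, 277 and 392 CPM in KO, and 352 and 356 CPM in KE, so that every mutant library lay below both WT libraries. The log2 fold change was -1.03 ± 0.24 in KO and -0.94 ± 0.24 in KE (edgeR FDR = 0.488 and 0.46). DESeq2 gave FDR of 0.013 and 0.0252, and only the KO difference reached the 2-fold threshold.

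Slfn4, an ISG best known from macrophages and other myeloid cells, was the member closest to an on and off pattern. It had 995 and 1240 reads in NK WT (80.4 and 95.2 CPM), 0 and 2 reads in KO, and 0 and 1 reads in KE. Over the pooled reads of a group, the ratio of WT to KO was 1101 (95% exact counting interval 304 to 9095), and that of WT to KE was 2034 (365 to 80376). The edgeR FDR was 0.751 and 0.689, and the DESeq2 FDR was 0.00616 and 0.00389. The NK WT libraries were also the highest in myeloid markers. NK KO replicate 1, with 0 Slfn4 reads, held 7586 CPM of these markers. The CD8 libraries with Slfn4 above the floor, CD8 WT replicate 2 at 12.1 CPM and CD8 KO replicate 2 at 20.4 CPM, held 214 and 54.4 CPM of them. The part of myeloid transcripts in the Slfn4 difference was not tested.

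**Figure D4:**
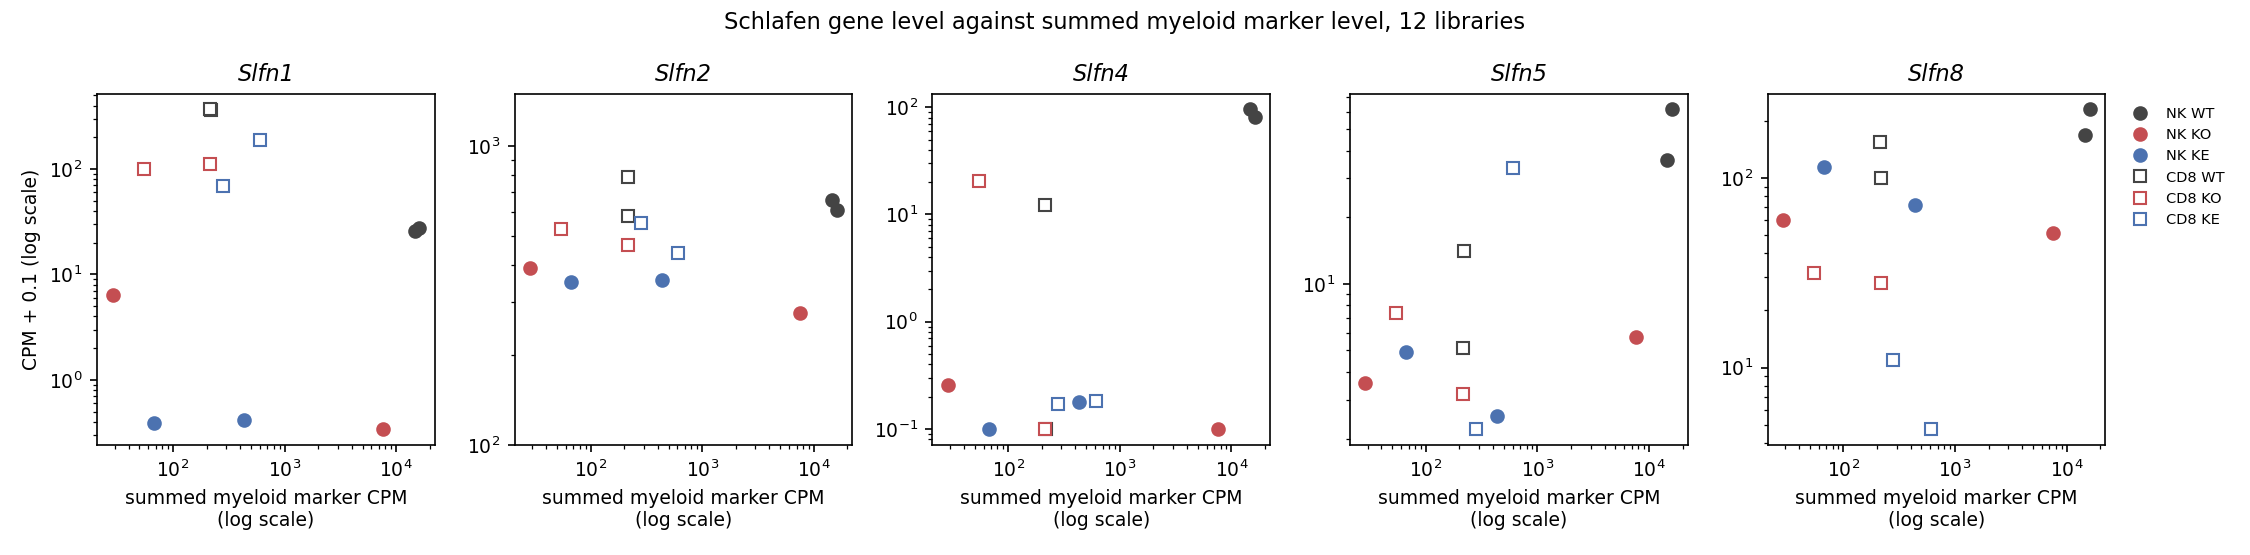
CPM plus 0.1 of 5 members (log scale) against the summed CPM of 15 myeloid markers (log scale) in the 12 libraries, filled circles for NK and open squares for CD8. The NK WT libraries lie at 14602 and 16165 CPM of markers, and NK KO replicate 1 lies at 7586 CPM, where Slfn1 is 0.243, Slfn4 0, Slfn5 5.68 and Slfn8 51 CPM, below both NK WT libraries.

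Slfn5, a nuclear long form induced by IFN-I, was 61.2 and 36.2 CPM in NK WT, 5.68 and 3.46 CPM in KO, and 4.82 and 2.43 CPM in KE. The groups of mutants did not overlap with WT. The log2 fold change was -3.52 ± 1.60 in KO and -3.85 ± 1.63 in KE, which did not pass in edgeR (FDR = 0.766 and 0.791) or DESeq2 (0.158 and 0.0851). Exons of Slfn5 overlap those of the antisense gene Slfn5os over 9.26% of their length, and Slfn5os itself was at 0 reads in all libraries.

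Slfn8, the long form that chose the family, could be tested in NK cells, whose libraries the choice did not use. It was 230 and 168 CPM in NK WT, 51 and 60.3 CPM in KO, and 114 and 72.2 CPM in KE. The order WT, KE, KO held without overlap between libraries. The log2 fold change was -1.95 ± 0.51 in KO (edgeR FDR = 0.568, DESeq2 FDR = 0.022) and -1.20 ± 0.49 in KE (edgeR FDR = 0.791, DESeq2 FDR = 0.381). Between KO and KE it was -0.75 ± 0.49 (edgeR FDR = 1), and -0.38 without KE replicate 1. These tests took their spread from all 12 libraries, among them the CD8 WT and CD8 KE libraries that chose Slfn8. With the NK libraries fitted alone, the edgeR FDR of Slfn8 was 0.516 in KO and 0.764 in KE against WT.

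Slfn9, the neighbour of Slfn8 with the same promoter core, did not share its pattern. It was 39.9 and 27.4 CPM in NK WT, 34.6 and 0.0787 CPM in KO, and 36.9 and 37.9 CPM in KE. Only KO replicate 2, with 1 read, was low. The log2 fold change in KO was -1.05 ± 1.67 (edgeR FDR = 1), and it was -0.05 without that library and -8.68 without KO replicate 1 (edgeR FDR = 0.165). Slfn3 was the only member with its highest NK levels in KE without overlap with WT. It had 0 reads in both NK WT libraries, which allows up to 0.242 and 0.23 CPM, 0 and 18 reads in KO (1.42 CPM in replicate 2), and 156 and 60 reads in KE (15 and 4.71 CPM). Against the floor of 3 reads over the WT group, Slfn3 was at least 79.1-fold higher in KE, with an edgeR FDR of 0.791 and a DESeq2 FDR of 0.0826.

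When the mean log2 CPM of the 15 myeloid markers entered the model as a covariate, Slfn1, Slfn2, Slfn5 and Slfn8 were fitted in NK cells at -7.08, -1.49, -3.13 and -2.52 in KO and -9.98, -1.46, -3.30 and -1.92 in KE, against WT, with edgeR FDR of 0.555 to 1. Slfn9 turned from -1.05 to 2.22 in KO. Slfn3 and Slfn4, with 3 reads or fewer in an NK group, are not given. Among NK libraries the myeloid marker sums were highest in both WT libraries, so the covariate and genotype largely ran together. These fits cannot separate them, and nothing is read from the sizes of the adjusted values. The part of myeloid transcripts in the NK differences was not tested.

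In CD8 cells, 3 of the 7 members (Slfn1, Slfn2 and Slfn8) were lower in all 4 mutant libraries than in both WT libraries, beside 6.65% of all genes tested. Nothing is read from this count, since it includes Slfn8 and the comparison of KE with WT that chose the family. Slfn8, whose difference in KE is the reason for the choice, was 99.6 and 155 CPM in CD8 WT, 27.7 and 31.3 CPM in KO, and 4.64 and 10.8 CPM in KE. The fitted log2 fold change was -4.07 in KE and -2.19 in KO, and KO exceeded KE by 1.88, all given without a test. Without KE replicate 1 or 2, the KE value was -3.57 or -4.84, and the difference between KO and KE was 1.38 or 2.64. The order in CD8 cells was thus WT, KO, KE, whereas in NK cells it was WT, KE, KO. How many of all genes show such unlike orders was not counted.

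Slfn1 was 359 and 367 CPM in CD8 WT, 111 and 101 CPM in KO, and 187 and 68.2 CPM in KE. The libraries of WT lay above all mutant libraries, and the KE libraries lay on either side of the KO libraries. In KO against WT the log2 fold change was -1.86 ± 0.91 (edgeR FDR = 0.888, DESeq2 FDR = 0.503), and in KE against WT it was -1.57, given without a test. The KE value was -2.43 without KE replicate 1 and -1.03 without KE replicate 2. Slfn2 was 789 and 583 CPM in CD8 WT, 466 and 527 CPM in KO, and 440 and 552 CPM in KE. Its log2 fold change in KO was -0.56 ± 0.24 (edgeR FDR = 0.888, DESeq2 FDR = 0.497), and in KE it was -0.53. Without WT replicate 1 these values were -0.29 and -0.24, and without KE replicate 1 the KE value was -0.34.

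For the other members the CD8 libraries overlapped between genotypes, except that both KE libraries of Slfn3 lay below both WT libraries. Slfn5 was 13.9 and 5.01 CPM in WT, 3.09 and 7.27 CPM in KO, and 33.3 and 2.11 CPM in KE, so that the KE libraries differed 15.8-fold from each other. Its log2 fold change was -0.99 ± 1.47 in KO (edgeR FDR = 1) and 0.80 in KE. With single CD8 libraries left out, the KO value ran from -0.01 (without WT replicate 1) to -1.71 (without KO replicate 2), and the KE value from -2.21 (without KE replicate 1) to 1.79 (without WT replicate 1). Slfn9 was 46.2 and 11.1 CPM in WT, 17 and 6.26 CPM in KO, and 17 and 21.3 CPM in KE. Slfn4 had 0 and 171 reads in WT, 0 and 241 reads in KO, and 1 read in each KE library. Slfn3 had 91 and 10 reads in WT, 144 and 1 reads in KO, and 6 and 4 reads in KE. For Slfn4 and Slfn3, single libraries thus carried nearly all reads of the WT and KO groups. In KO against WT, none of the 6 members tested passed in edgeR or DESeq2, beside 0.0533% and 1.67% of all genes, and 1 (Slfn2) had an unadjusted p under 0.05 in edgeR, beside 4.84% of all genes. In KE against WT, 4 of 7 members were fitted at least 2-fold lower, beside 20.6% of all genes, from which nothing is read since this comparison chose the family.

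**Figure D5:**
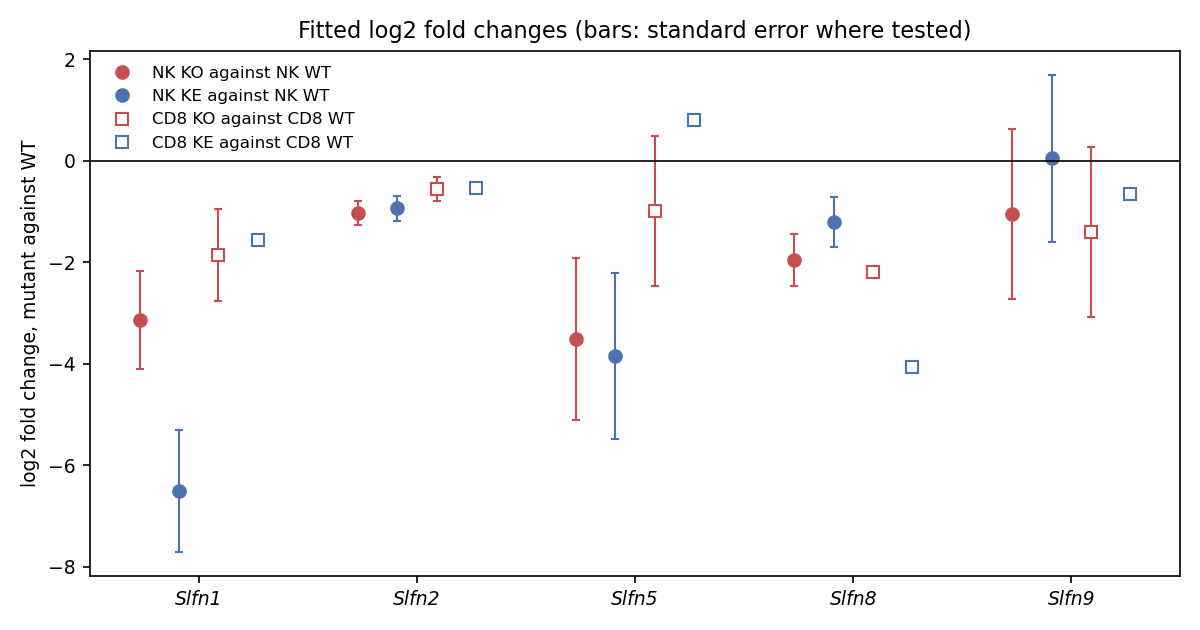
Fitted log2 fold changes of 5 members for KO and KE against WT, filled circles for NK and open squares for CD8, with bars of 1 SE where a test was made. In NK cells the values run from -6.51 (Slfn1, KE) to 0.05 (Slfn9, KE), and in CD8 cells only Slfn5 in KE, at 0.80, lies above 0. Slfn3 and Slfn4 are left out because an NK group held 3 reads or fewer.

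Between the cell types, Slfn1 stood out. All 6 NK libraries (0.243 to 27.7 CPM) were below all 6 CD8 libraries (68.2 to 367 CPM), as for 2.51% of all genes. Over the 3 genotypes Slfn1 was 60.2-fold lower in NK than in CD8 cells (log2 fold change -5.91 ± 0.64, edgeR FDR = 0.000426), and DESeq2 gave an FDR of 2.11e-24. The log2 fold change was -7.13 without NK KO replicate 2 and -4.96 with the myeloid covariate, and it passed in both. In the WT groups alone, the means were 26.6 ± 1.5 CPM in NK and 363 ± 5.39 CPM in CD8 cells (SD, n = 2). It was the only one of the 6 members tested that passed in this comparison, in which 4.59% of all genes passed in edgeR and 11.9% in DESeq2. Slfn2 was lower in NK cells by a log2 difference of -0.49 ± 0.14 (edgeR FDR = 0.079, DESeq2 FDR = 0.0423), below the 2-fold threshold. Slfn8 was 55.7 ± 6.56 CPM (SD, n = 2) in NK KO and 29.5 ± 2.57 CPM (SD, n = 2) in CD8 KO, without overlap, and the log2 difference of 0.83 ± 0.49 did not pass (edgeR FDR = 0.584, DESeq2 FDR = 0.506).

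The mutant effects were also compared between the cell types directly. For Slfn1 the KO effect in NK minus that in CD8 cells was -1.28 ± 1.26 on the log2 scale (edgeR FDR = 1). This value rested on single libraries, with -0.34 without NK KO replicate 1 and -4.94 without NK KO replicate 2. For Slfn2 the KO effects differed by -0.47 ± 0.34 (edgeR FDR = 0.983), from -0.22 without CD8 WT replicate 2 to -0.73 without CD8 WT replicate 1. With the myeloid covariate the KO effects differed by -4.87 for Slfn1 and -0.87 for Slfn2. The KE effects differed by -4.94 for Slfn1 and -0.41 for Slfn2, given without a test since they contain the comparison that chose the family. The Slfn1 value was -4.08 without CD8 KE replicate 1, -5.47 without CD8 KE replicate 2 and -8.80 with the myeloid covariate. The Slfn2 value was -0.96 with that covariate, -0.68 without CD8 WT replicate 1 and -0.17 without CD8 WT replicate 2. For the KO difference no member passed in edgeR or DESeq2, beside 0.0152% and 1.39% of all genes. An unadjusted p under 0.05 was reached by 1 of the 6 members tested, Slfn4, beside 5.32% of all genes, and it was the 1 member called by edgeR without the filter on low counts, beside 0.553% of genes.

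Across the 12 libraries, members did not share 1 pattern. The highest Pearson correlation of log2 CPM between members was 0.82 for Slfn1 with Slfn2, and the lowest was -0.64 for Slfn3 with Slfn4. The adjacent Slfn8 and Slfn9, with alike promoter cores, had an r of 0.15. The points share libraries and groups, so these values are descriptions only. The genes with the most similar pattern were Ms4a6b (r = 0.962), Mif (0.946) and Dgka (0.945) for Slfn1, and Evi2a (0.933), Pld2 (0.911) and Plac8 (0.901) for Slfn2. For Slfn8 they were Cd274 (0.935), which encodes the ligand PD-L1, Tlk2 (0.922) and Gm12250 (0.909). For Slfn5 they were Folr2 (0.924), Lrrc25 (0.889) and Cebpa (0.879), of which at least Folr2 and Cebpa are known from myeloid cells. For Slfn9 they were Etv3 (0.979), Tbk1 (0.961) and Tor3a (0.959), for Slfn4 Gm43633 (0.983), Adam15 (0.973) and Gm43011 (0.892), and for Slfn3 Dnpep (0.944), Chmp6 (0.872) and Clec11a (0.857).

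Classical IFN-I induced genes were read beside the family. Of 20 effector genes, all 20 passed the filter, and both libraries lay below both WT libraries for 16 genes in NK KO and 17 in NK KE, beside 16.8% and 17% of all genes. In CD8 cells this held for 17 genes in KO and 16 in KE, beside 13.9% and 15% of all genes. Their median log2 fold change was -2.14 and -2.10 in NK KO and KE, and it was -2.90 and -3.03 for the same mutants in CD8 cells. In edgeR 0 were called lower in NK KO, NK KE and CD8 KO, whereas DESeq2 called 4, 5 and 8 lower, and neither tool called one higher. Beside these, edgeR called 0%, 0% and 0.0533% of all genes in the 3 comparisons, in that order, and DESeq2 called 2.67%, 2.83% and 1.67%. At an unadjusted p under 0.05 in edgeR, 11, 10 and 10 of the 20 were lower, beside 6.35%, 6.06% and 4.84% of all genes in either direction. The same shares stand beside the counts of the lists that follow. Oas3, which makes the activator of RNase L, was 152 and 127 CPM in NK WT, 0 and 0.236 CPM in KO, and 9.83 and 15.4 CPM in KE. Oas1a, of the same family, was 115 and 135 CPM in NK WT, 6.17 and 0.0787 CPM in KO, and 0 in both KE libraries. Ifi44 was 153 and 126 CPM in NK WT, 0 in both KO libraries and 0 and 3.61 CPM in KE. In CD8 cells, the antiviral gene Rsad2 was 102 and 43.5 CPM in WT, 0.0754 and 0.0846 CPM in KO, and 7.71 and 0 CPM in KE. Oasl2 was 11.3 and 54.5 CPM in CD8 WT and at most 0.169 CPM in the 4 mutant libraries.

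The signaling components were read in the same way. For the 4 IFN-I receptors and kinases (Ifnar1, Ifnar2, Jak1 and Tyk2) the median log2 fold change lay between -0.01 and 0.11 over the 4 mutant comparisons, and 0 were called by edgeR or DESeq2, or reached an unadjusted p under 0.05 in edgeR, in NK KO, NK KE and CD8 KO. For no list are calls given for CD8 KE against WT, the comparison that chose the family. Of the 7 ISGF3 subunits and interferon regulatory factors, 0 were called in edgeR in NK KO, NK KE and CD8 KO, DESeq2 called 1, 0 and 1 lower (2.67%, 2.83% and 1.67% of all genes), and 2, 3 and 3 were lower at an unadjusted p under 0.05 in edgeR. In both knockouts the gene called by DESeq2 was Irf7, the amplifier of IFN-I production, with 585 and 451 CPM in NK WT against 101 and 109 CPM in KO, and 281 and 291 CPM in CD8 WT against 51.6 and 20.2 CPM in KO. The median log2 fold change of this list was -0.46 for KO and -0.63 for KE in NK cells, and -0.95 and -0.89 in CD8 cells. Irf3 went the other way in NK cells, with 56.6 and 68.7 CPM in WT, 94.6 and 88.5 CPM in KO, and 99.7 and 179 CPM in KE. Of the 5 feedback inhibitors, 0 were called in edgeR in those 3 comparisons, DESeq2 called 0, 1 and 1 lower (2.67%, 2.83% and 1.67% of all genes), and the same numbers were lower at an unadjusted p under 0.05 in edgeR. Their median was -0.68 for KO and -1.21 for KE in NK cells, and -0.69 and 0.07 in CD8 cells. Usp18, which binds the receptor and blocks further signaling, was 271 and 276 CPM in NK WT, 8.19 and 73.9 CPM in KO, and 25.8 and 18.4 CPM in KE. In CD8 cells Usp18 was 289 and 234 CPM in WT, 1.36 and 12.9 CPM in KO, and 4.4 and 0.14 CPM in KE. Not every inhibitor was lower. Cish, a suppressor of cytokine signaling, was 51.6 and 118 CPM in NK WT, 111 and 215 CPM in KO, and 123 and 184 CPM in KE. Socs1, which inhibits Janus kinases, was 29 and 26.6 CPM in CD8 WT, 47.8 and 28.9 CPM in KO, and 57.8 and 75.3 CPM in KE.

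Of the 12 T cell quiescence genes, which include Slfn2, edgeR called 0 in NK KO, NK KE and CD8 KO, and DESeq2 called 1, Slfn2 itself, in NK KO and 0 in the others. At an unadjusted p under 0.05 in edgeR, 1, 1 and 2 of them were lower. The median log2 fold change of these genes was -0.08 for KO and 0.24 for KE among NK cells, and -0.21 for KO and -0.40 for KE among CD8 cells. The largest fold change among NK cells was that of Klf4, a repressor of T cell proliferation, with 0 and 1.54 CPM in WT, 16.7 and 4.41 CPM in KO, and 16.9 and 0.392 CPM in KE. Klf2, a transcription factor that keeps T cells at rest, was 61.7 and 124 CPM in NK WT, 39.7 and 44.3 CPM in KO, and 87.4 and 42.2 CPM in KE. In CD8 cells Klf2 was 39.2 and 4.59 CPM in WT, 29.6 and 30.1 CPM in KO, and 15.8 and 5.12 CPM in KE. Foxo1, which acts upstream of Klf2, was 57.2 and 72 CPM in CD8 WT, 35.3 and 43.6 CPM in KO, and 2.82 and 28.7 CPM in KE.

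Some members share stretches of identical sequence as long as a read, and only reads with a single alignment were counted by the authors. Of the 50-base words of Slfn8, 9.3% also occur in Slfn9 and 10.1% in Slfn10-ps, and of those of Slfn9, 6.52% occur in Slfn8 and 8.1% in Slfn10-ps. Slfn3 and Slfn4 shared 252 words, which are 7.39% and 6.28% of theirs, and 4.27% of the words of Slfn2 occur in Slfn4. Counted against the transcripts of all other genes, on either strand, the shares were 16% for Slfn3, 14.6% for Slfn8 and 11.9% for Slfn9. They were 11.3% for Slfn4, 11.1% for Slfn5, 4.27% for Slfn2 and 0.606% for Slfn1. Reads from these stretches cannot be assigned to 1 gene, and the levels of these genes are uncertain for that reason.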

How the data were processed

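The authors trimmed 50-base single-end reads with Trimmomatic, aligned them with STAR to mm10 (GRCm38), and deposited raw read counts per gene, made with summarizeOverlaps from uniquely aligned reads. Use of strand is not given in the sources used here. The table held 54232 genes in 12 libraries, and 153 IDs had no symbol. Groups and replicate numbers came from the sample titles. The members and gene lists were chosen with earlier results of these data known.

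Counts were fitted with edgeR 4.0.16 in R 4.3.3 (TMM, robust quasi-likelihood F test, two-sided, 1 mean per group over all 12 libraries). Genes whose DESeq2-normalized count averaged 10 or more were tested (13129), with Benjamini-Hochberg FDR over all of them. A call needed an FDR under 0.05 and a 2-fold or larger difference. The SE was derived from the fold change and its F value. CPM was computed from library totals, and correlations used log2 CPM with 2 counts added. Alternatives were DESeq2 1.42.0 (the tool of the study), its size factors or upper-quartile scaling in edgeR, no filter, 1 cell type alone, a replicate block, a myeloid covariate and each library left out. A planned test of the KE effect in NK minus CD8 is not used, since it contains the comparison that chose the family. Gene coordinates and exon lengths came from the basic set of GENCODE vM21 on GRCm38, 50-base words from all its transcripts, and promoters from RefSeq. The build is that of the files, and the annotation release is another.

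Named genes were the 7 members, other Schlafen genes by their counts, Tyk2, up to 4 genes per list with the largest fold change in a cell type, and for each member the 3 genes with the highest Pearson correlation. Same-numbered libraries did not deviate together (correlations of -0.0264 to 0.0372 over 15 pairs of groups), so numbers were not treated as pairs.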

Additional observations from a re-analysis of the deposited data

Results flagged for a closer look

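Slfn8 was marked because its KO and KE libraries fell in opposite orders in the 2 cell types. In NK cells both KO libraries (51 and 60.3 CPM) were below both KE libraries (114 and 72.2 CPM), and in CD8 cells both KO libraries (27.7 and 31.3 CPM) were above both KE libraries (4.64 and 10.8 CPM). The fitted log2 difference of KO against KE in NK minus that in CD8 was -2.63. Its NK part was -0.38 or -1.05, and its CD8 part 1.38 or 2.64, without replicate 1 or 2 of KE in that cell type. This difference was not tested, since the CD8 KE libraries chose the gene. Only the members were scanned for opposite orders, with 2 libraries a group, and the share of all genes that show them was not counted.

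Slfn3 was marked because its KE libraries lay above WT in NK and below WT in CD8 cells. It was at least 79.1-fold higher in NK KE than in NK WT (15 and 4.71 CPM against 0 reads in both), and in CD8 cells both KE libraries (0.498 and 0.281 CPM) were below both WT libraries (6.18 and 0.705 CPM). This difference was not tested, since it contains the CD8 comparison that chose the family. For this pattern too, the share over all genes was not counted.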

How the results depend on the processing

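The counts of called members in edgeR stood at 0 in NK KO and KE against WT, NK KO against KE, CD8 KO against WT, CD8 KO against KE and the KO effect in NK minus CD8, and at 1 (Slfn1) between NK and CD8. DESeq2 in place of edgeR gave 4 called members in NK KO against WT and 2 in NK KE against WT, beside 2.67% and 2.83% of all genes. Without a filter on low counts, edgeR called 2 (Slfn1 and Slfn4) in NK KO and in NK KE against WT. It called 1 (Slfn1) in NK KO against NK KE and 1 (Slfn4) in the KO effect in NK minus CD8. The shares of genes called in these 4 comparisons were 0.823%, 1.08%, 0.405% and 0.553%, in that order. The cause of these changes in count was not tested. With single libraries left out, the count in NK KE against WT was 0 to 1. With the myeloid covariate Slfn9 in NK KO turned to 2.22. With single libraries left out, the log2 difference of Slfn1 between NK KO and NK KE was -0.29 to 4.31, and that of Slfn5 in CD8 KE was -2.21 to 1.79. Of 198 alternative values for counts and for Slfn8 between NK KO and CD8 KO, 190 were taken as unchanged. A small shift in a count, such as from 5 to 6 members, was also taken as unchanged. Many of these counts stood at 0, and others contain the comparison that chose the family, so nothing is read from this tally. Of 488 for single genes, 467 were taken as unchanged, 9 passed newly, 9 moved and 3 reversed. For tested genes, unchanged meant the same sign and the same side of the call thresholds, whatever the size. Slfn9 in NK KO, for example, was -1.05 in the main fit and -8.68 without KO replicate 1. The 488 also include values from the comparison that chose the family. In the replicate block, Slfn1 in NK KE was -6.52 (FDR = 0.328), and the block called 0 members in the same genotype comparisons. Leaving out NK KO replicate 1 or 2 moved the KO effect of Slfn1 in NK minus CD8 to -0.34 or -4.94. The common biological coefficient of variation was 109% with 2 libraries a group, and values at 3 reads or fewer are limited by depth.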
